A study of Mus musculus with 12 samples.

Results

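The 4 miRNAs described here, mmu-miR-143, mmu-miR-145, mmu-miR-199a-3p and mmu-miR-214, are known from the cells that surround endothelium, and they were followed in preparations of mouse lung endothelial cells. They were taken by name from a TaqMan low-density array, a card on which each well holds the assay of one small RNA, and they are 4 of its 375 miRNA assays. The rule that picks them uses their names and no measured value, although earlier results of these data were known when they were chosen. The study compared miRNAs of resting endothelial cells with those of cells that met a ligand of NOD1 or of NOD2, cytosolic receptors of bacterial cell wall fragments. The cells came from lungs of male C57BL/6N wild type mice aged 6 to 10 weeks, with 3 mice for every isolation, were selected on magnetic beads against CD144 and CD31 and were grown to confluence. 4 arrays held unstimulated control cells, 4 held cells after 6 hours of the NOD1 ligand Tri-DAP and 4 held cells after 6 hours of the NOD2 ligand MDP, each ligand at 10 μg/mL, and all cells had been kept at low serum for 2 hours before. The arrays of a group stand for separate cell isolations, 4 in number. Neither the labels nor the study say which control, Tri-DAP and MDP arrays come from the same isolation.

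miR-143 and miR-145 are cut from a shared primary transcript and are among the most abundant miRNAs of vascular smooth muscle, where they favour the contractile state, and they are also found in pericytes. miR-199a and miR-214 are cut from Dnm3os, a transcript antisense to the dynamin gene Dnm3 that is active in mesenchymal cells, and both are widely used as miRNAs of fibroblasts. Endothelial cells are marked by miR-126, whose hairpin lies in an intron of the endothelial gene Egfl7, and miR-126-3p and miR-126-5p are given beside the members for that reason. In a bulk preparation such as this, fewer cells of a type and less RNA per cell cannot be told apart.

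The mature sequences of the fibroblast pair are shown because they differ in the bases that choose targets although they begin alike. Capitals mark the seed, bases 2 to 8 from the 5′ end, and the sequences are those of RefSeq on GRCm38.p6.
mmu-miR-199a-3p: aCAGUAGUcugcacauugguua
mmu-miR-214-3p: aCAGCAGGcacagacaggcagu
mmu-miR-199a-5p: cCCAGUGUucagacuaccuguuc
The first 4 bases of miR-199a-3p and miR-214-3p are equal and the seeds differ thereafter. miR-199a-3p is made from Mir199a-2 (chr1:162217883-162217904, plus strand) and from Mir199a-1 (chr9:21496498-21496519, minus strand), and its sequence is also that of mmu-miR-199b-3p, made from Mir199b (chr2:32318524-32318545, plus strand). An assay of this sequence therefore reads the product of all these hairpins together. miR-214-3p is made from Mir214 (chr1:162223438-162223459, plus strand), and its seed was shared by 1 other mature mouse miRNA of the RefSeq table, miR-761. The hairpins of Mir199a-2 and Mir214 lie 5444 bases apart, both inside Dnm3os. miR-199a-5p comes from the other arm of the Mir199a hairpins and has its own assay on the card.

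The card reports the PCR cycle at which the signal of a well crosses a threshold (Ct), and a well that had not crossed it by cycle 40 is undetermined. A lower Ct stands for more RNA, with about 1 doubling per cycle. All 4 members were measured on all 12 arrays. The labels number the arrays from 4 to 15, and each run of 3 consecutive numbers held 1 control array, 1 Tri-DAP array and 1 MDP array. These runs are called sets here, and neither the labels nor the study say that a set shares a cell isolation or a day. The values are given by set, always in the order control, Tri-DAP and MDP.

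miR-143, of smooth muscle and pericytes, crossed the threshold at a Ct of 29.1, 28.2 and 29.2 on arrays 4 to 6. It crossed at 30.2, 30.6 and 30.4 on arrays 7 to 9, at 27.4, 27.0 and 27.4 on arrays 10 to 12, and at 24.8, 25.0 and 25.0 on arrays 13 to 15. Arrays 13 to 15 held the most miR-143 and arrays 7 to 9 the least, whatever the treatment.

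miR-145, its partner on the same transcript, had Ct values of 29.9, 29.3 and 30.3 on arrays 4 to 6 and of 33.1, 31.8 and 32.5 on arrays 7 to 9. On arrays 10 to 12 they were 27.3, 27.0 and 28.0, and on arrays 13 to 15 they were 23.1, 23.4 and 23.5. From the latest to the earliest array miR-145 covered 9.96 cycles, the widest range of the 4 members.

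miR-199a-3p, of fibroblasts, gave 26.9, 27.4 and 27.2 on arrays 4 to 6, and 28.6, 29.4 and 29.5 on arrays 7 to 9. It gave 27.1, 26.5 and 26.7 on arrays 10 to 12, and 24.3, 24.5 and 24.5 on arrays 13 to 15. The range of 5.20 cycles was the narrowest of the members, and the Ct values of arrays 4 to 6 and of arrays 10 to 12 overlapped.

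miR-214, cut from the same transcript as miR-199a-3p, had Ct values of 27.8, 27.9 and 28.3 on arrays 4 to 6 and of 30.1, 30.9 and 29.1 on arrays 7 to 9. They were 26.1, 26.0 and 26.3 on arrays 10 to 12, and 23.5, 23.3 and 23.7 on arrays 13 to 15. The sets of miR-214 did not overlap with each other.

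The endothelial miR-126-3p departed from this order on arrays 13 to 15. Its mean Ct was 19.5 on arrays 4 to 6, 19.8 on arrays 7 to 9, 19.0 on arrays 10 to 12 and 20.5 on arrays 13 to 15, so that the arrays with the most of the 4 members had the latest miR-126-3p. Over the other 3 sets its raw Ct was, like that of the members, latest on arrays 7 to 9 and earliest on arrays 10 to 12. That likeness did not hold once the values were set against a reference, as given below. miR-126-3p had the earliest mean Ct among 174 miRNAs with a value on all 12 arrays and miR-126-5p the second earliest, so the endothelial marker was present in every preparation. The members took ranks 44 (miR-199a-3p), 46 (miR-214), 64 (miR-143) and 74 (miR-145) in that order of mean Ct, which compares assays only roughly, since assays differ in efficiency. miR-145 crossed the threshold 13.7 cycles after miR-126-3p on array 7 and 2.78 cycles after it on array 13. For miR-143 that distance lay between 10.9 cycles on array 7 and 4.39 on array 15, for miR-199a-3p between 9.73 on array 9 and 3.89 on array 15, and for miR-214 between 10.7 on array 7 and 2.92 on array 14.

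To set arrays beside each other, each Ct was turned into a log2 level relative to the average Ct of those 174 miRNAs on the same array, called the array mean. The authors normalized to U6, a small nuclear RNA with 4 wells on the card, whose mean Ct ranged from 18.3 to 21.6 between arrays. The SD of the 4 U6 wells of an array ran from 0.11 cycles on array 8 to 2.05 on array 12. Both scales, array mean and U6, are given where they differ. On the array-mean scale, the mean level of miR-143 was -1.09 on arrays 7 to 9, -0.12 on arrays 4 to 6, 1.21 on arrays 10 to 12 and 3.35 on arrays 13 to 15. For miR-145 the same sets had means of -3.13, -1.10, 1.05 and 4.96, and for miR-214 they had -0.69, 0.68, 2.38 and 4.79. For miR-199a-3p the means were 0.18, 1.54, 1.73 and 3.87, and the sets of arrays 4 to 6 and 10 to 12 overlapped. Relative to U6 these middle sets of miR-199a-3p stood the other way round, with a mean of -7.28 on arrays 4 to 6 and of -7.92 on arrays 10 to 12, so their order depends on the reference. All 4 members thus had their lowest mean on arrays 7 to 9 and their highest on arrays 13 to 15. miR-126-3p had its highest mean on arrays 7 to 9 and its lowest on arrays 13 to 15. These were 9.57 and 7.84 relative to the array mean, and 0.78 and -1.32 relative to U6.

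**Figure D1:**
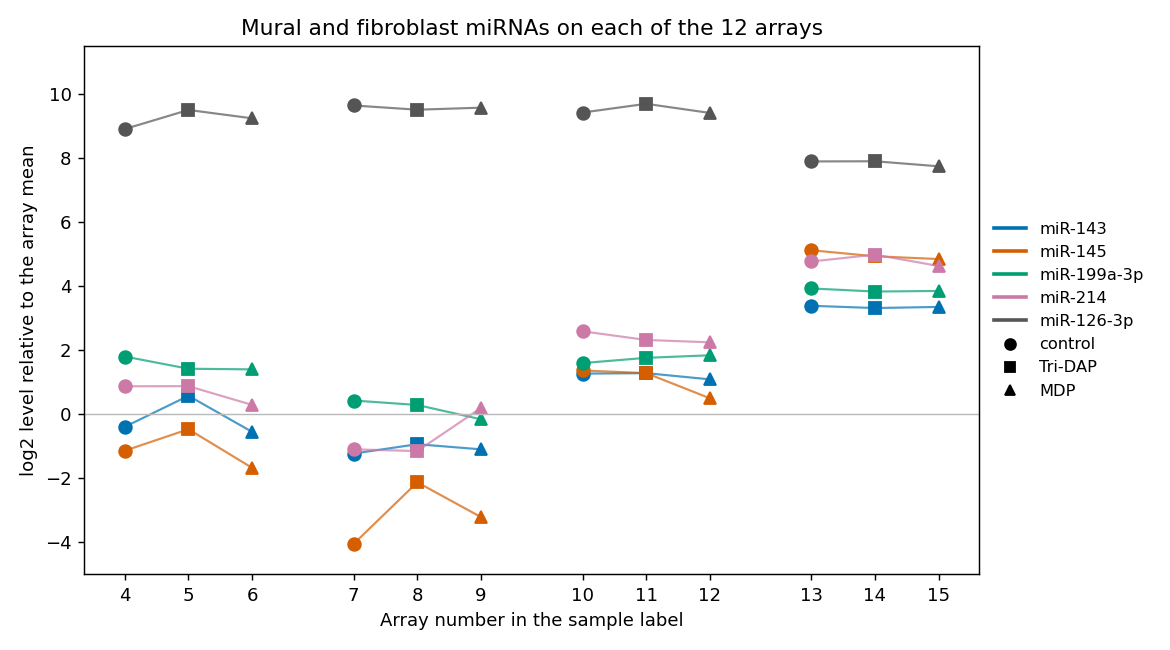
Log2 level relative to the array mean (vertical axis) of the 4 members and of the endothelial miR-126-3p on each array, by the number in its label (horizontal axis), with circles for control, squares for Tri-DAP and triangles for MDP. Lines join the arrays of a set of consecutive numbers. All 4 members are highest on arrays 13 to 15, where miR-126-3p is lowest.

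The gap between the extreme sets, chosen for their values and given without a test, was 4.44 for miR-143, a 21.7-fold difference in level, and 8.09 for miR-145, or 273-fold. It was 3.68 for miR-199a-3p, or 12.9-fold, and 5.48 for miR-214, or 44.6-fold. Relative to U6 the same gaps were 4.08, 7.73, 3.32 and 5.12 on the log2 scale. On the array-mean scale, miR-126-3p was lower on arrays 13 to 15 than on arrays 7 to 9 by a log2 difference of -1.73, and miR-126-5p by -2.25. For each member the lowest of arrays 13 to 15 lay above the highest of the other 9 arrays on that scale. The log2 distance was 2.03 for miR-143, 3.48 for miR-145, 1.99 for miR-199a-3p and 2.04 for miR-214. How many other assays set arrays 13 to 15 apart was not counted, so this trait is not shown to be particular to the members. Outside the members, miR-132 had set means of 0.28, 0.23 and 0.72 in order of array number, against 2.99 on arrays 13 to 15. miR-10b went the other way, with 3.12, 3.64 and 3.97 against 0.61.

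The spread of the members between arrays was set against that of the 174 miRNAs measured on all arrays. The SD over the 12 arrays on the array-mean scale was 3.18 for miR-145, 2.17 for miR-214, 1.76 for miR-143 and 1.39 for miR-199a-3p, against a median of 0.66 over all 174. These values were the fourth, eighth, 14th and 27th highest. Relative to U6 the SDs were 3.06, 2.0, 1.66 and 1.39 in the same order, against a median of 0.92. Their ranks on that scale were 4, 7, 23 and 34. On the array-mean scale without arrays 13 to 15 the SD was 1.91, 1.40, 1.05 and 0.76 in the same order of members. On this scale the arrays of a set spread less than the set means did, although their treatments differed. Relative to U6 the arrays of a set could lie farther apart, and miR-199a-3p had levels of -4.85, -6.21 and -4.82 on arrays 13 to 15. The pooled SD within sets was taken on the array-mean scale only. It was 0.20 for miR-199a-3p, 0.32 for miR-143, 0.43 for miR-214 and 0.62 for miR-145, against a median of 0.37 over all 174. miR-214 and miR-145 thus spread more within sets than the median assay. The SD of the set means on that scale was 1.52 for miR-199a-3p, 1.92 for miR-143, 2.36 for miR-214 and 3.46 for miR-145. The ratio of between-set to within-set SD was 7.55 for miR-199a-3p, the highest of the 174 miRNAs. It was 6.04 for miR-143, 5.58 for miR-145 and 5.43 for miR-214, at ranks 3, 7 and 8, against a median of 1.39. The endothelial miR-126-3p had a ratio of 4.54, at rank 12, and miR-126-5p of 2.64, at rank 41. The SD of the 3 treatment means was 0.10, 0.19, 0.41 and 0.04 for miR-199a-3p, miR-143, miR-145 and miR-214, with a median of 0.15 over all 174.

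**Figure D2:**
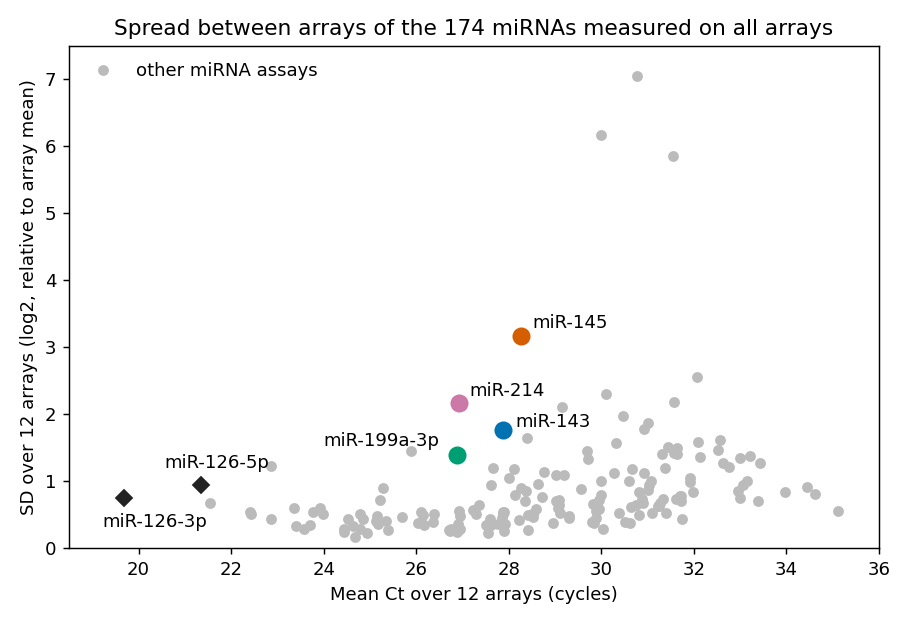
SD over the 12 arrays of the log2 level relative to the array mean (vertical axis) against the mean Ct (horizontal axis) for the 174 miRNAs with a value on every array, with the members coloured and miR-126-3p and miR-126-5p as black diamonds. miR-145 has an SD of 3.18 and miR-214 of 2.17, well above most assays of similar Ct.

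Both pairs moved together from array to array. miR-143 and miR-145 had a Pearson's r of 0.99 and a Spearman's rho of 0.99 over the 12 arrays, which share a reference and of which arrays 13 to 15 stand apart. Over the other 9 arrays r was 0.97. miR-199a-3p and miR-214 had r = 0.94 and rho = 0.87, and r = 0.77 over the 9 arrays. Members of different transcripts were closely related too. r was 0.98 for miR-143 with miR-214, 0.97 for miR-145 with miR-214, and 0.95 for miR-199a-3p with miR-143 and with miR-145, and over the 9 arrays these were 0.93, 0.91, 0.79 and 0.82. These 6 relations are descriptions without a p, since the 12 arrays come from 4 isolations.

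The difference in Ct within each pair was not constant. The level of miR-145 minus that of miR-143 on the same array needs no reference, and it was -2.04 on average on arrays 7 to 9, -0.97 on arrays 4 to 6, -0.16 on arrays 10 to 12 and 1.62 on arrays 13 to 15, on the log2 scale. The arrays ran from -2.82 on control array 7 to 1.73 on control array 13. The slope of miR-145 on miR-143, taken on the array-mean scale, was 1.79. In the fibroblast pair, miR-214 minus miR-199a-3p was -0.87 on arrays 7 to 9, -0.86 on arrays 4 to 6, 0.65 on arrays 10 to 12 and 0.92 on arrays 13 to 15. The slope of miR-214 on miR-199a-3p, on the array-mean scale, was 1.46. In both pairs the member with the later Ct on arrays 4 to 6 had the earlier Ct on arrays 13 to 15. Which member of a pair is the more abundant is known only roughly, since assays differ in efficiency. The log2 differences and slopes also take 1 doubling per cycle for both assays of a pair, which was not tested. The miR-199a-3p assay reads hairpins outside Dnm3os as well.

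**Figure D3:**
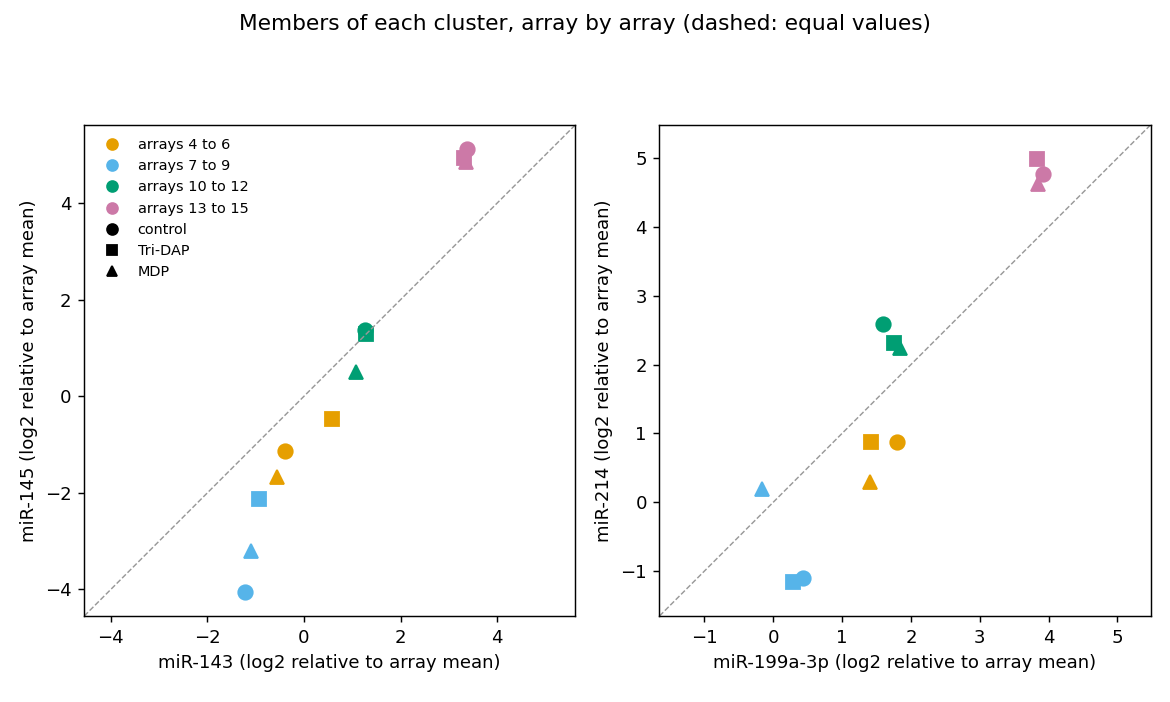
Log2 levels relative to the array mean of miR-145 against miR-143 (left) and of miR-214 against miR-199a-3p (right), a point per array, with colours for the sets of consecutive label numbers and shapes for the treatments. The points cross the dashed line of equal values from below it on arrays 4 to 6 to above it on arrays 13 to 15, and the single point of arrays 7 to 9 above the line at right is MDP array 9.

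miR-199a-5p, from the other arm of the Mir199a hairpins, was much later on the card than miR-199a-3p. Its Ct was 32.8, 32.0 and 33.0 on arrays 4 to 6, 35.5, 34.0 and 33.0 on arrays 10 to 12 and 30.3, 31.3 and 31.4 on arrays 13 to 15, and it was undetermined on arrays 7, 8 and 9. It was thus highest on the set that was highest in all 4 members, and below detection on the set that was lowest. Its mean level relative to the array mean was -3.91 on arrays 4 to 6 and -5.69 on arrays 10 to 12, an order that none of the 4 members had on that scale and that miR-199a-3p had relative to U6.

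The first comparison asked which miRNAs differ after 6 hours of the NOD1 ligand. On the U6 scale of the authors, miR-143 had a mean level of -8.26 ± 2.09 (SD, n = 4) on the control arrays and of -8.19 ± 1.01 after Tri-DAP. Its levels were -9.28, -10.21, -8.16 and -5.39 on control arrays 4, 7, 10 and 13, and -8.57, -9.03, -8.44 and -6.72 on Tri-DAP arrays 5, 8, 11 and 14. The groups overlapped throughout, and the array of the highest set stood above the others in both. The difference was 0.07 ± 1.16 (SE) with a 95% interval from -2.44 to 2.58.

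miR-145 had levels of -10.03, -13.03, -8.06 and -3.66 on the control arrays and of -9.62, -10.22, -8.44 and -5.10 after Tri-DAP. The difference was 0.35 ± 2.03 (SE), with an interval from -4.05 to 4.74. The spread of the control arrays alone, from array 7 to array 13, was wider than that interval.

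miR-199a-3p had levels of -7.09, -8.55, -7.83 and -4.85 on the control arrays and of -7.73, -7.81, -7.96 and -6.21 after Tri-DAP, a difference of -0.35 ± 1.0 with an interval from -2.51 to 1.82. miR-214 had levels of -8.02, -10.07, -6.83 and -4.01 on the control arrays and of -8.27, -9.25, -7.40 and -5.05 after Tri-DAP, a difference of -0.26 ± 1.37 with an interval from -3.21 to 2.69. Tri-DAP and control arrays overlapped for all 4 members. limma, which fits a linear model to each miRNA with a spread borrowed from all, called 0 of the 4 members at an unadjusted p under 0.05, where it called 1.69% of the 237 miRNAs tested, 4 in number, and 0 after adjustment. The adjusted p of each member was 0.998, and the two-sided exact permutation p was 0.97, 0.91, 0.71 and 0.89 for miR-143, miR-145, miR-199a-3p and miR-214. The median difference of the 237 miRNAs was -0.24.

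**Figure D4:**
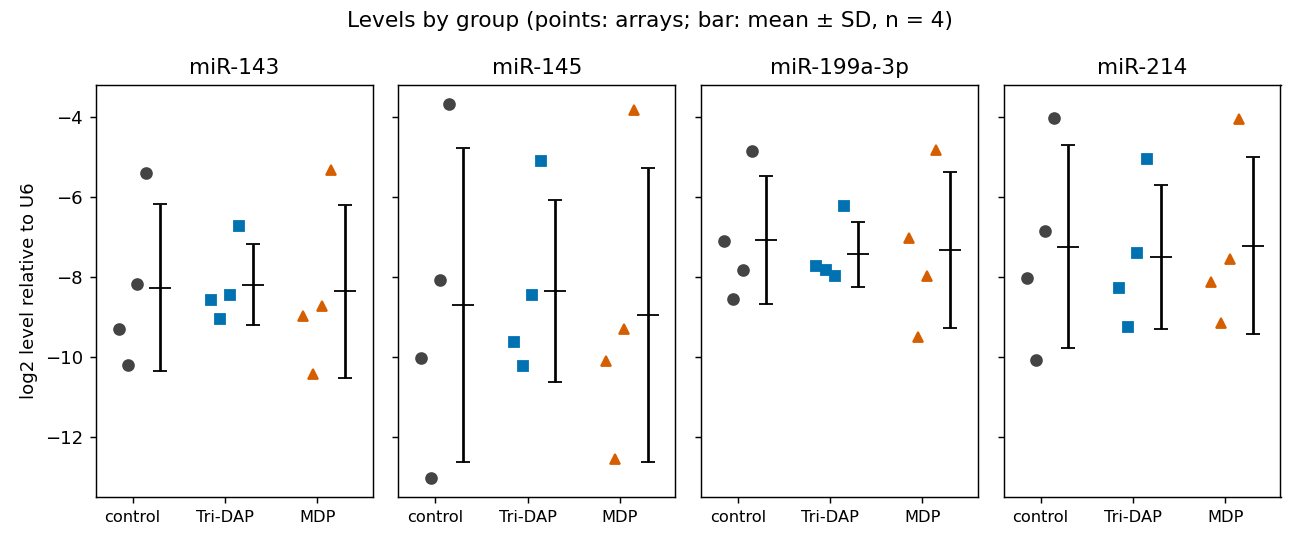
Log2 level relative to U6 (vertical axis) of each member on the 4 arrays of each treatment, with points for arrays in the order of their label numbers and bars for the mean and SD. The last point of every group, from arrays 13 to 15, is the highest, and the treatments overlap for all 4 members.

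The second comparison asked the same of the NOD2 ligand. After MDP, miR-143 had levels of -8.97, -10.42, -8.71 and -5.32 on arrays 6, 9, 12 and 15, and miR-145 had levels of -10.09, -12.54, -9.30 and -3.82. The differences to control were -0.09 ± 1.16 (SE) for miR-143, with an interval from -2.61 to 2.42, and -0.24 ± 2.04 for miR-145, with an interval from -4.66 to 4.17. miR-199a-3p had levels of -7.02, -9.48, -7.96 and -4.82 after MDP, and miR-214 had levels of -8.12, -9.13, -7.55 and -4.04. Again the array of the highest set lay above the other MDP arrays. miR-199a-3p differed from control by -0.24 ± 1.0, with an interval from -2.40 to 1.93, and miR-214 by 0.02 ± 1.37, with an interval from -2.94 to 2.98. 0 of the 4 members were called, where limma called 1.23% of 244 miRNAs at an unadjusted p under 0.05, 3 in number, and 0 after adjustment. The adjusted p was 1.0 for each member, and the exact permutation p was 0.94, 0.91, 0.83 and 1.0 in the order miR-143, miR-145, miR-199a-3p and miR-214.

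MDP was also set against Tri-DAP, with both ligands at 10 μg/mL for 6 hours. The differences were -0.16 ± 1.17 (SE) for miR-143, -0.59 ± 2.05 for miR-145, 0.11 ± 1.01 for miR-199a-3p and 0.28 ± 1.37 for miR-214. Their 95% intervals ran from -2.69 to 2.36, from -5.03 to 3.84, from -2.07 to 2.28 and from -2.70 to 3.26. 0 of the 4 members were called, against 2.9% of 241 miRNAs, 7 in number, at an unadjusted p under 0.05 and 0 after adjustment. The adjusted p from limma was 0.998 for each member, and the exact permutation p was 0.83, 0.80, 0.97 and 0.77. In this fit, which leaves out the sets, the intervals allow differences of several-fold in either direction.

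The differences were also taken within sets. On the array-mean scale, Tri-DAP minus control for miR-143 was 0.97 on arrays 4 to 6, 0.29 on arrays 7 to 9, 0.02 on arrays 10 to 12 and -0.07 on arrays 13 to 15. For miR-145 it was 0.67, 1.92, -0.08 and -0.19 in the same sets. The larger differences of both stood on arrays 4 to 9, the sets with the lower levels. For miR-199a-3p it lay between -0.38 and 0.16 and for miR-214 between -0.27 and 0.21. MDP minus control lay between -0.18 and 0.13 for miR-143, between -0.87 and 0.84 for miR-145, between -0.59 and 0.24 for miR-199a-3p and between -0.58 and 1.29 for miR-214. In the latter the value of 1.29 stood on arrays 7 to 9 and the other 3 sets were below 0. Among the members in the 3 comparisons, only miR-145 in MDP against Tri-DAP had the same sign in all 4 sets on this scale, with -1.20, -1.09, -0.78 and -0.09. Relative to U6 the difference on arrays 13 to 15 was 1.28. The sets were then put in the fit on the array-mean scale, a combination chosen after seeing the data. There limma gave miR-145 a difference of -0.79 ± 0.36 (SE), with an interval from -1.64 to 0.06. The p of that fit was 0.063 before and 0.91 after adjustment. The intervals of the other members were narrower in it than without the sets as well. For MDP against Tri-DAP they ran from -0.88 to 0.16 for miR-143, from -0.50 to 0.32 for miR-199a-3p and from -0.71 to 0.88 for miR-214. For Tri-DAP against control they ran from -0.22 to 0.82 for miR-143, from -0.26 to 1.43 for miR-145, from -0.52 to 0.30 for miR-199a-3p and from -0.82 to 0.76 for miR-214. For MDP against control they ran from -0.58 to 0.46, from -1.06 to 0.64, from -0.62 to 0.21 and from -0.74 to 0.85 in the same order. With the sets in the fit on the U6 scale of the authors, the intervals of all members were wider than these. For MDP against Tri-DAP, limma gave miR-145 a difference of -0.59 ± 0.68 (SE) there, from -2.10 to 0.91, with an unadjusted p of 0.40. The intervals ran from -1.40 to 1.07 for miR-143, from -1.13 to 1.34 for miR-199a-3p and from -0.82 to 1.38 for miR-214. Both fits assume that the arrays of a set belong together, which no source states.

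**Figure D5:**
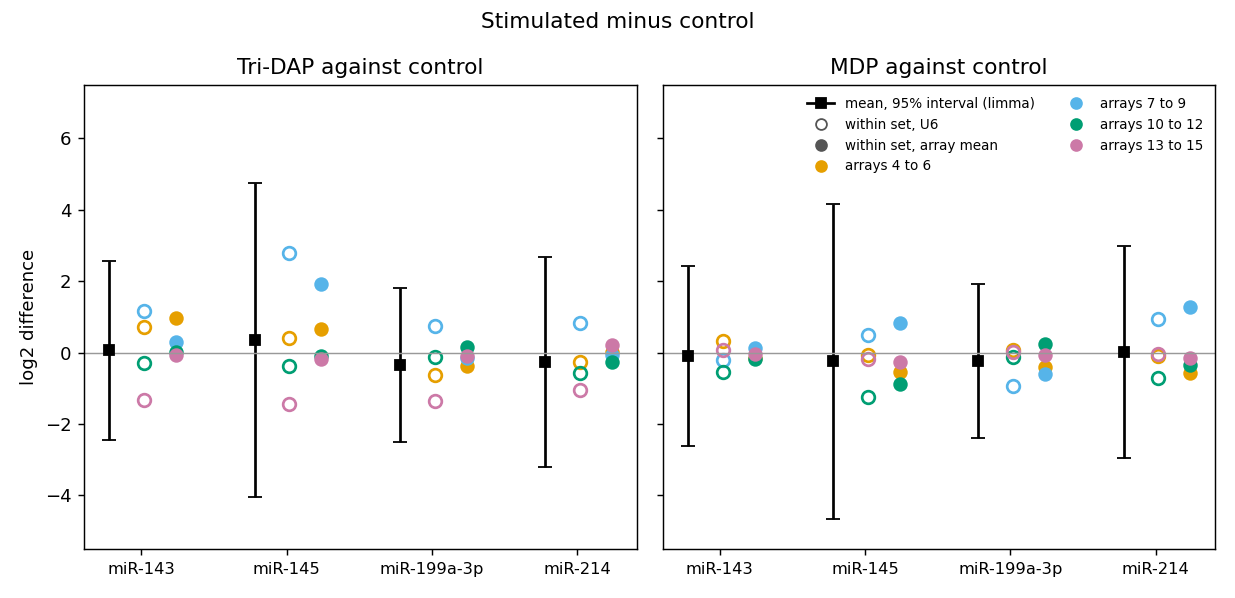
Log2 difference of Tri-DAP (left) and MDP (right) from control (vertical axis) for each member. Black squares give limma's mean difference on the U6 scale with its 95% interval, and circles give the difference within each set of consecutive label numbers, open relative to U6 and filled relative to the array mean. All circles lie inside the intervals.

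The assays most like each member were sought among the mouse assays measured on all 12 arrays, by Pearson's r on the array-mean scale. For each member the 3 most alike of the 165 other assays were the 3 other members, with r from 0.94 to 0.99. On the U6 scale the members took ranks 1 to 5 in each other's order, and over the 9 arrays without arrays 13 to 15 they took ranks 2 to 21. Over those 9 arrays miR-218 was the most alike to miR-143 and to miR-145, with r = 0.97 for each, and miR-322 to miR-214, with r = 0.97, both named after their values were seen. Over the 12 arrays, 6 of the 170 assays outside the 4 members had an r of at least 0.8 to the mean of the members. They were miR-132 (r = 0.92), miR-429 (0.91), miR-218 (0.91), miR-322 (0.87), miR-503 (0.84) and miR-28 (0.81), named after their values were seen. An r of -0.8 or lower was found for 19, and the median r was -0.15.

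Other miRNAs linked to mesenchymal cells did not share the order of the sets as a list, and several of them are also found in endothelial cells. Of 12 such assays on the card, 11 were measured on all arrays, of which 6 had a positive and 5 a negative r to the mean of the members, with a median of 0.23. miR-199a-5p, undetermined on arrays 7 to 9, has no r and is not in these counts. miR-218 (r = 0.91), miR-322 (0.87) and miR-503 (0.84) were the nearest, the latter pair being cut from a shared transcript. miR-21, miR-125b-5p, miR-10b and miR-100, the most abundant of the list, had r of -0.17, -0.68, -0.76 and 0.68. miR-10b, which endothelial cells also express, was lower on arrays 13 to 15 than on arrays 7 to 9 by a log2 difference of -3.03. 0 of the 12 assays were called in each of the 3 comparisons of treatments.

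Lists of other cell types moved with the sets in different ways, and their part in the differences between sets was not tested. The summed level of both miR-126 arms lay between 8.11 and 8.23 on arrays 13 to 15 and between 9.33 and 10.31 on the other 9 arrays, log2 relative to the array mean. The summed level of 8 epithelial miRNAs, of which 2 were measured on all arrays, lay between 1.72 and 1.97 on arrays 13 to 15, between 0.64 and 0.96 on arrays 10 to 12, between -0.81 and 3.18 on arrays 4 to 6 and between -2.60 and -0.39 on arrays 7 to 9. Of these, miR-429, of the epithelial miR-200 family, had a mean level of -4.49 on arrays 7 to 9 and of -0.18 on arrays 13 to 15. Its r to the mean of the members was 0.91. Its relative miR-200c had means of -4.45, with 2 of the 3 arrays measured, and -0.15. miR-200a, miR-200b and miR-141 were also higher on arrays 13 to 15 than on arrays 7 to 9. miR-203, the other epithelial miRNA measured on all arrays, had an r of 0.21. Its means were -5.04 on arrays 7 to 9, -4.55 on arrays 4 to 6 and -4.55 on arrays 13 to 15. miR-375 went the other way, with -4.85 on arrays 7 to 9 and -6.22 on arrays 13 to 15, and was measured on 6 arrays. miR-205 was measured on 1 array. 4 leukocyte miRNAs had a summed level between -1.44 and -0.90 on arrays 13 to 15 and between -0.97 and 0.10 on the other sets. They did not move alike. miR-150, the earliest of them in mean Ct, had means of -0.55 on arrays 7 to 9 and -2.08 on arrays 13 to 15. miR-223 had -2.43 and -2.40 in these sets. miR-142-3p was undetermined on arrays 7 to 9 and had a mean of -5.90 on arrays 13 to 15. miR-142-5p was measured on 2 arrays. Of 6 miRNAs of heart and skeletal muscle, 0 were measured on all arrays, and miR-133b and miR-499 were each measured on 1 array. 0 of the endothelial, epithelial and leukocyte assays tested were called in any comparison of treatments. Of the muscle list, 1 of the 3 tested in MDP against Tri-DAP was called. Over the card limma called 2.9% of 241 miRNAs in that comparison, 7 in number, and 0 after adjustment. The called assay was that of mouse miR-1, higher after MDP by 4.87 ± 1.68 (SE) on the log2 scale. Its p from limma was 0.018 before and 0.998 after adjustment. It was measured on 8 of the 12 arrays, with 1 among arrays 7 to 9 and 1 among arrays 10 to 12. A second miR-1 assay on the card, labelled for rat, gave 1.16 ± 1.48 (SE) with an unadjusted p from limma of 0.45.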

How the data were processed

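RNA of 12 samples was measured on TaqMan low-density arrays, and groups were taken from the labels. The authors deposited Ct values in cycles, not normalized, with 40 for undetermined wells, and normalized values on a log2 scale, in which the average of the 4 U6 wells was subtracted from each Ct, as checked here to within 5.33e-15. The threshold was set automatically, according to the methods. Deposited fold changes and 12 unnamed columns were not used.

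The sign of the normalized values was turned, wells at 40 were set missing, and miRNAs with at least 2 measured values in each compared group entered a single fit of all 12 arrays in limma 3.58.1 (lmFit, eBayes; R 4.3.3), without a block. A miRNA was called where the unadjusted p was under 0.05, with Benjamini-Hochberg adjustment over all miRNAs tested. Each member was given a two-sided exact permutation p as well, which cannot fall below 0.029 with 4 arrays against 4. Correlations, spreads and set means were described without a test, relative to the average Ct of the 174 miRNAs with a value on every array. The fit was tested on simulated data. Precision is limited by the number of arrays, and 231 to 254 miRNAs were measured per array.

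The members and the lists of other miRNAs were chosen with earlier results of these data known. Named by rule were the members, other arms of their hairpins, both miR-126 arms, for each member the 3 assays most like it, and up to 4 miRNAs of each list with the earliest mean Ct. miR-132, miR-28, miR-218, miR-322, miR-503, miR-429, the miR-1 assay labelled for rat and the miRNAs in the closing observations were named after their values were seen. Mature sequences were matched by name to RefSeq on GRCm38.p6. Alternatives covered the reference, undetermined wells, a Ct limit of 35, the filter, the groups in the fit, the moderation, the methods' test, the sets as a block and leaving out arrays.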

Additional observations from a re-analysis of the deposited data

Results flagged for a closer look

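miR-199a-3p on Tri-DAP array 14 had a level of -6.21 relative to U6 and stood apart from the other 3 Tri-DAP arrays, which lay between -7.96 and -7.73. It was the 1 such value in 12 groups of arrays examined, and chance gives about 1 in 20 groups. Relative to the array mean its level of 3.83 lay between those of control array 13 (3.93) and Tri-DAP array 11 (1.76), and the U6 wells of array 14 had a mean Ct of 18.3 with an SD of 1.93.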

How the results depend on the processing

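None of the 4 members was called in any of the 3 comparisons under any of the 288 alternative fits of single differences, and the smallest p from limma among them was 0.063. The direction of these uncalled differences was not fixed, and 34 of the 288 changed sign, of which 31 came from leaving out 1 array. miR-199a-3p in MDP against Tri-DAP was -0.0919 relative to the array mean, also with the sets as a block, and -0.024 without normalization, in place of 0.11. Leaving out each array in turn, Tri-DAP against control ranged from -0.58 to 1.02 for miR-143, from -1.10 to 2.03 for miR-145, from -0.84 to 0.40 for miR-199a-3p and from -1.21 to 0.82 for miR-214, lowest without control array 7 and highest without control array 13. MDP against control ranged from -1.11 to 0.86, from -1.95 to 1.43, from -1.07 to 0.50 and from -1.04 to 1.10 for the same members, lowest without MDP array 15 and highest without control array 13. MDP against Tri-DAP ranged from -1.17 to 0.53, from -2.30 to 0.61, from -0.73 to 0.83 and from -0.78 to 1.09, lowest without MDP array 15. The cause was not tested. The relation of miR-143 with miR-145 was 0.986 as Spearman's rho, 0.984 without the 2 arrays farthest from the median and 0.967 without arrays 13 to 15, the latter chosen after seeing the data. That of miR-199a-3p with miR-214 was 0.885 relative to U6, 0.874 as rho, 0.892 without the 2 farthest arrays and 0.769 without arrays 13 to 15. Without these arrays the SD over arrays was 1.05 for miR-143, 1.91 for miR-145, 0.76 for miR-199a-3p and 1.40 for miR-214. Over all miRNAs tested, the calls at an unadjusted p under 0.05 ranged from 1 to 13 for Tri-DAP against control, from 0 to 12 for MDP against control and from 0 to 17 for MDP against Tri-DAP, where the 17 came without Tri-DAP array 8.

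The labels give groups no shared replicate numbers, and no stated pairing exists. With consecutive label numbers as a block, 9, 6 and 9 miRNAs were called in the 3 comparisons, and 13, 12 and 12 with the array mean as reference as well, a combination chosen after seeing the data. Deviations of arrays of a set from their group means correlated between -0.12 and 0.83, and 10 of 12 arrays correlated best with an array of their own set, a hint from the data and not from the design.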

Other observations

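The miRNAs that ran most against the 4 members across the 12 arrays, relative to the array mean, were named from their values. miR-24 had the lowest Pearson's r to the mean of the members, -0.95, with a mean level of 8.05 on arrays 7 to 9 and of 6.38 on arrays 13 to 15. Next to it stood miR-27a, with r = -0.94, and the 3 members of the miR-29 family, which is known to act on collagen mRNAs. miR-29a had r = -0.94, miR-29c -0.94 and miR-29b -0.93, and their mean levels on arrays 13 to 15 were 5.53, 4.48 and -1.81 against 6.79, 5.87 and 0.71 on arrays 7 to 9. miR-126-5p and miR-126-3p had r of -0.89 and -0.85. These values share the reference and the arrays with the members and are given without a test.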
